A study of Mus musculus with 24 samples.

Results

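B2m, H2-K1, H2-D1, Tap1, Psmb8, Irf1, Irf9, Ifit1 and Ifit3 stand for 2 linked programmes of the cell, antigen presentation by MHC class I and the response to interferon. The 9 genes were found by their symbols among 46603 annotated genes; the count tables also hold 79999 loci assembled from the reads, which makes 126602 features in all. The organoids were mouse retinal organoids (MROs), retinal tissue that self-organises in culture, here from the wildtype embryonic stem cell line E14Tg2a. By their labels all are controls that had solvent water as their treatment, although the titles mark D22, D25 and D30 as controls and not D20; the 4 timepoints form a time course. Before D20 the culture protocol had given them Matrigel, serum and the synthetic retinoid EC23. At each of the 4 timepoints 6 organoids were taken one by one from 1 independent experiment, and the total RNA of each gave its own library after depletion of ribosomal RNA. Comparing the timepoints asks which transcripts change as the tissue matures under control conditions.

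Class I molecules show fragments of the proteins made inside a cell on its surface: the proteasome cuts the peptides, the Tap1 and Tap2 transporter carries them into the endoplasmic reticulum, and there they are loaded onto a heavy chain such as H2-K1 or H2-D1 paired with the light chain B2m. Interferons raise all of these components: their receptors act through JAK kinases and STAT proteins, which join Irf9 on interferon-stimulated response elements (ISREs) or act as pairs on gamma-activated sites (GAS). Neurons carry little MHC class I at rest, and in the mouse visual pathway class I molecules are known for a part in the refinement of synapses.

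The libraries held 13634846 to 15793703 counts at D20 (median 14646126.5), 13942695 to 15789570 at D22 (median 14783556.5), 14524620 to 18078956 at D25 (median 16719793.5) and 15814895 to 19477108 at D30 (median 17278681.5). Levels are given as normalized CPM, in which edgeR's TMM brings the libraries to a common scale. A count of 0 allows up to 3 counts, which is 0.154 to 0.22 CPM depending on the library, and such limits cover counting error only. A feature was tested where its mean normalized count over all organoids was at least 10, and a difference is called where the p-value of edgeR's quasi-likelihood test, adjusted over all 46949 tested features, was under 0.01. A gene scarce at D20 could thus pass the filter through its D30 counts. The numbers called and the medians of gene lists are to be read with this limit. Called genes of the pathway lists were named by the size of their change from D20 to D30. Where their D30 organoids all lie apart from those of D20, this describes that change and adds no support to it. In bulk samples fewer cells of a type and less RNA per cell cannot be told apart.

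Of the 9 genes 7 passed the filter on low counts; Psmb8 (mean normalized count 7.66) and Ifit1 (2.79) did not. Between D20 and D22 edgeR called 0 of them, with 1 at an unadjusted p under 0.05 and 0 by DESeq2, against 1.9% of all tested features. From D22 to D25 edgeR again called 0, with 3 at an unadjusted p under 0.05, while Ifit3 was called by DESeq2, and by edgeR without D25 replicate 1; the share of all features was 5.28%. From D25 to D30 the call fell on 3 genes, H2-D1, Irf9 and B2m, all higher at D30. Of all tested features 3.51% were called in either direction and 1.76% as higher. Among the tested annotated genes alone these shares were 7.38% and 4.55%. DESeq2 called 4 of the 9 genes, adding Ifit3. The number in edgeR was 1, H2-D1, with no filter on low counts and without D25 replicate 1, 2 or 4 or D30 replicate 5 or 6. Over the whole interval from D20 to D30 the 3 called genes, all higher, were H2-D1, Irf9 and Ifit3, where 26.8% of features were called and 13.9% as higher; DESeq2 called 5, adding B2m and Irf1. Among the tested annotated genes alone 41.8% were called, 25.1% as higher and 16.7% as lower, so the number of called genes by itself does not set the 9 apart. The joint test for any difference among the timepoints called 5, B2m, H2-D1, Irf1, Irf9 and Ifit3, against 27.2% of features. In a fit of annotated genes only, the joint test called 46.9% of them. In 3 of the 7 tested genes, H2-D1, Irf9 and Ifit3, every D30 organoid lay above every D20 organoid, a pattern found in 9.6% of tested features. In 2 of them, H2-D1 and Irf9, every D30 organoid also lay above every organoid of D22 and D25, against 1.62% of tested features. The shares of these patterns among annotated genes alone were not computed. Psmb8 had both patterns too, but it was under the filter and these shares do not cover it. Ifit3 held 6, 15, 88 and 334 counts over the organoids of D20, D22, D25 and D30. It could thus pass the filter through its D30 counts, and its call and its separation from D20 are to be read with this limit.

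**Figure D1:**
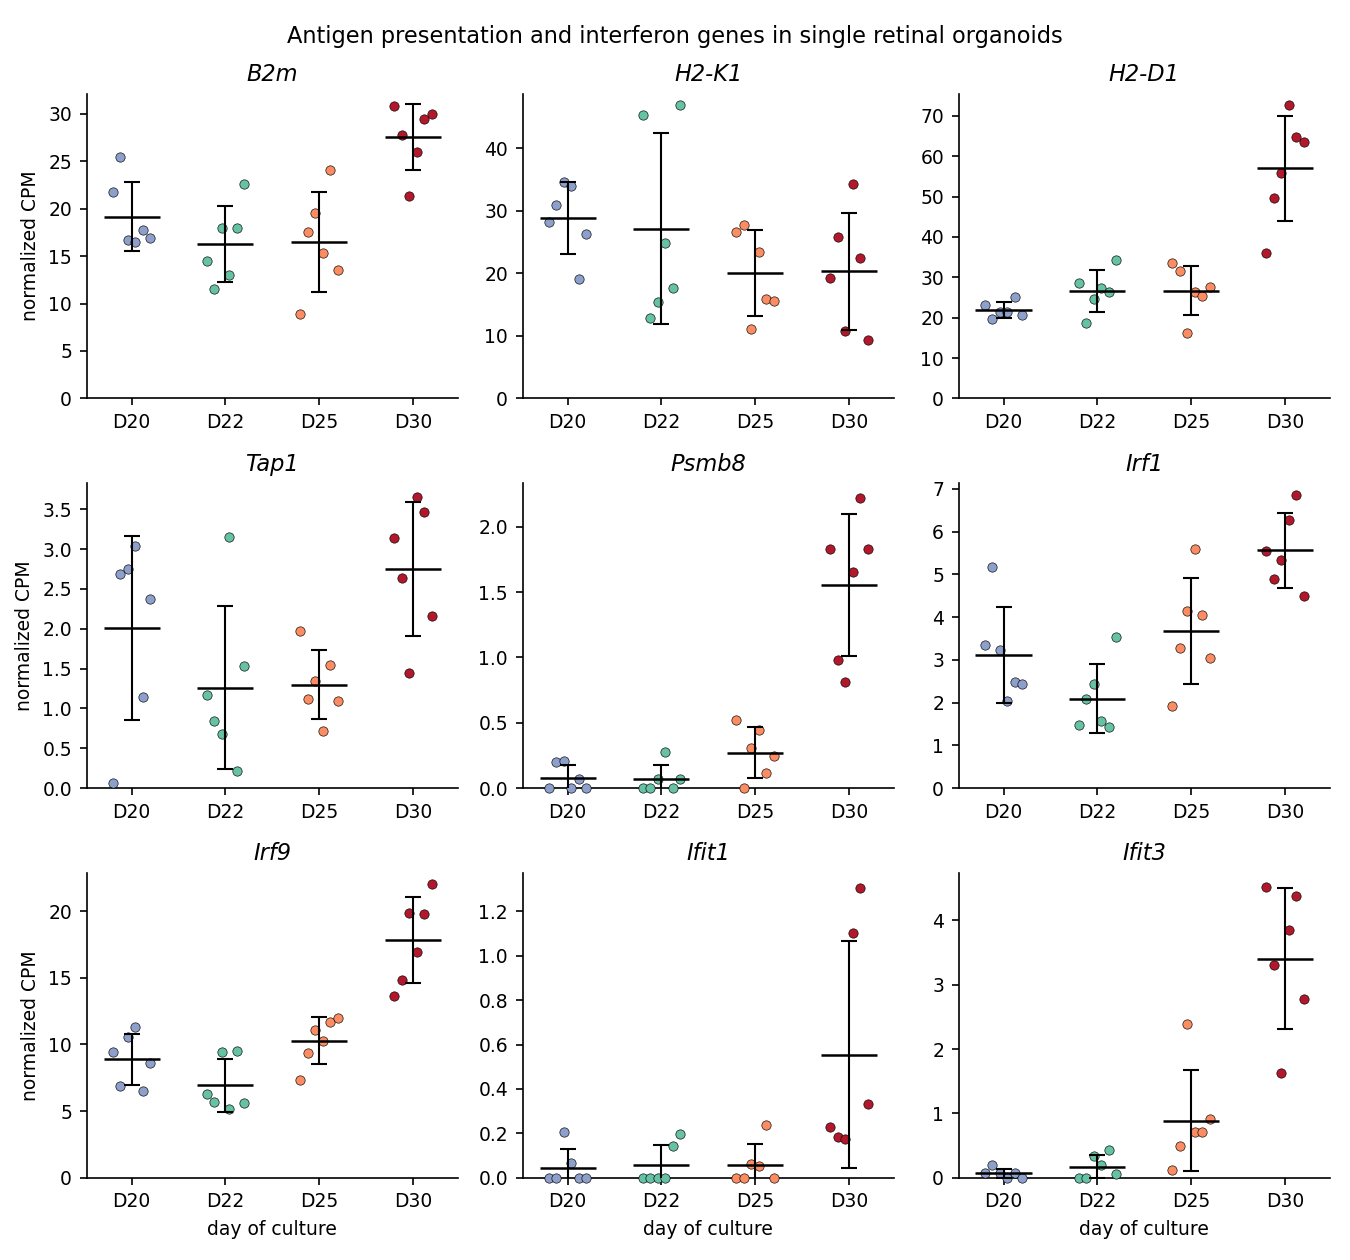
Normalized CPM of the 9 genes in each of the 24 organoids by day of culture; a point is 1 organoid, the line its timepoint's mean and the bar 1 SD. H2-D1, Psmb8 and Irf9 have all 6 D30 organoids above all earlier ones, while H2-K1 overlaps at every step.

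The ligands of the pathway were close to absent. Of 9 interferon genes listed (Ifnb1, Ifng, Ifne, Ifnk, Ifna1, Ifna2, Ifna4, Ifnl2 and Ifnl3) 8 had 0 counts in every organoid. Ifnk, an interferon of keratinocytes, was the exception, with 1 count at D22 and 9 counts over the D30 organoids, at most 4 in any of them. All of the ligands fell under the filter, so none was tested. The receptors were counted: Ifnar1, the signalling chain of the type I receptor, named here after its values were seen, ranged from 57.0 to 77.0 CPM over all organoids. Of 6 receptor genes 5 were tested and 1 was called from D20 to D30, against 25.1% of tested annotated genes called higher: Ifngr1, the ligand-binding chain of the interferon gamma receptor, with a log2 fold change of 0.53 (SE 0.14, adjusted p 0.00334). It lay above all D20 organoids in 5 of 6 D30 organoids, and without D20 replicate 6 the call was lost (0.45, adjusted p 0.0128; 0.00136 to 0.0128 over the leave-outs). The other 4 receptor chains had log2 fold changes from -0.06 to 0.27.

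Behind the receptors stand the signalling genes. From D20 to D30 Stat3, which serves the interleukin-6 family of cytokines among others, rose by 1.91 (SE 0.11, adjusted p 1.35e-14). Jak1, a kinase bound to both kinds of interferon receptor, rose by 0.82 (SE 0.10, adjusted p 9.13e-08). In both genes all 6 D30 organoids were above all D20 organoids, as in 9.6% of tested features. Of the 11 JAK, STAT and IRF genes listed beside Irf1 and Irf9, 10 were tested, and 3 were called higher and 0 lower, Stat3 and Jak1 among them. That is near the share of tested annotated genes called higher, 25.1%, and so does not set the list apart. The median log2 fold change of the 10 was 0.18, beside -0.04 over all tested features and 0.10 over the tested annotated genes. Among 8 feedback inhibitors 5 were tested and 1 was called, again beside 25.1%: Ptpn2, a phosphatase that removes phosphate from JAK and STAT proteins (0.42, adjusted p 0.0013, above all D20 organoids in 5 of 6).

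Irf9 is the DNA-binding partner of STAT proteins. It stood at 6.54 to 11.3 CPM at D20 (median 9.04), 5.20 to 9.50 at D22 (median 5.98), 7.35 to 12.02 at D25 (median 10.7) and 13.6 to 22.0 at D30 (median 18.4). The ranges of the first 3 timepoints overlapped, and all 6 D30 organoids lay above them. The log2 fold change was 1.01 from D20 to D30 (SE 0.19, adjusted p 6.01e-05) and 0.79 from D25 to D30 (SE 0.18, adjusted p 0.00551). The later step lost its call without D25 replicate 1, 2 or 4 or D30 replicate 3, 5 or 6, with log2 fold changes of 0.73 to 0.81 and adjusted p-values of 0.0113 to 0.0157, where all leave-outs gave 0.00332 to 0.0157. The step from D22 to D25 (0.57, adjusted p 0.045) missed the threshold.

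Irf1, a transcription factor that interferon gamma induces and that acts on class I genes, was counted at a lower level. Its range was 2.05 to 5.17 CPM at D20 (median 2.86), 1.44 to 3.53 at D22 (median 1.83), 1.91 to 5.59 at D25 (median 3.66) and 4.49 to 6.85 at D30 (median 5.43). The lowest timepoint was D22, and 4 of 6 D30 organoids were above all of D20. The joint test called Irf1 (adjusted p 0.000895). No pairwise comparison in edgeR did: the log2 fold change from D20 to D30 was 0.83 (SE 0.27, adjusted p 0.0142). It was past the threshold in DESeq2 (adjusted p 0.00379) and with DESeq2's size factors in edgeR (0.00875), where the alternatives other than leave-outs gave 0.00379 to 0.0279. Without D20 replicate 2, the organoid with the highest D20 level, it was 1.03 and past the threshold (adjusted p 0.00336; 0.00336 to 0.0393 over the leave-outs).

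Ifit1 and Ifit3 are effectors with tetratricopeptide repeats that cells make in large amounts after interferon; Ifit1 binds foreign RNA by its cap. Ifit3 went from nearly none to a steady signal. At D20 its 6 organoids held 6 counts in all and 2 of them held 0; the range was 0 to 0.202 CPM (median 0.0694). At D22 it was 0 to 0.432 CPM (median 0.136), at D25 0.116 to 2.38 (median 0.716) and at D30 1.62 to 4.51 (median 3.58). All D30 organoids exceeded all of D20 and D22, and 5 of 6 exceeded every organoid of D25, where replicate 3 stood apart at 2.38 CPM. The log2 fold change from D20 to D30 was 5.49 (SE 0.74, adjusted p 5.73e-07). With so few counts at D20 its size is loose: the ratio of summed counts, 334 against 6 after scaling, was 49.8, with a 95% exact interval for counting error from 22.6 to 137.

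The single steps of Ifit3 missed the threshold in edgeR, while DESeq2 called both, with adjusted p-values of 0.00353 for the step that ended at D25 and 0.00471 for the one that ended at D30. The alternatives other than leave-outs gave 0.00353 to 0.0639 and 0.00471 to 0.0376. In edgeR, from D22 to D25 its log2 fold change was 2.33 (SE 0.66, adjusted p 0.0196), which without D25 replicate 1 became 2.56 (adjusted p 0.00967; 0.00967 to 0.098 over the leave-outs). From D25 to D30 it was 1.93 (SE 0.56, adjusted p 0.0312), which without D25 replicate 3 became 2.52 (adjusted p 0.00833; 0.00833 to 0.0751 over the leave-outs). Ifit3b, a near-identical neighbour of Ifit3, shares much of its sequence, and how reads from the pair were divided is uncertain. It had 8 counts over the D20 organoids and 134 over those of D30 and fell under the filter.

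Ifit1 stayed sparse, with 4, 5, 6 and 52 counts over the organoids of D20, D22, D25 and D30. Every D30 organoid had at least 3 counts and the highest had 20, while 4 of 6 D20 organoids had 0. The scaled ratio of D30 to D20 counts was 11.6 (95% exact interval 4.28 to 44.3). Of the 4 counts at D20, 3 came from replicate 3, so the size of this ratio rests largely on 1 organoid. The interval covers counting error only. In a fit with no filter on low counts its log2 fold change was 3.39 with an adjusted p of 0.047, which missed the threshold.

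The promoters of the pair are shown because both carry the letters of an ISRE, the element that Irf9 binds together with STAT proteins. RefSeq promoters on the build GRCm38.p6 were found for 9 of 9 genes, 12 promoters in all. The 250 bases before each start were searched on both strands for TTTCNNTTTC, the core of an ISRE, and for TTCNNNGAA, a GAS. Of 32851 mouse promoters 2.98% held the ISRE core and 7.02% the GAS in that window. The lines give the last 180 bases before the RefSeq start, 5′ to 3′, with the ISRE core in capitals; 2.01% of all promoters held it within those 180 bases. The Ifit3 sequence is chr19:34583349-34583528 and that of Ifit1 chr19:34640709-34640888, both on the plus strand.
Ifit3: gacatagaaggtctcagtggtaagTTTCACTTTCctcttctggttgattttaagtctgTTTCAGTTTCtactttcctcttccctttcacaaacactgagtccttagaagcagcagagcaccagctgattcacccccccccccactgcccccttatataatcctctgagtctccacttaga
Ifit1: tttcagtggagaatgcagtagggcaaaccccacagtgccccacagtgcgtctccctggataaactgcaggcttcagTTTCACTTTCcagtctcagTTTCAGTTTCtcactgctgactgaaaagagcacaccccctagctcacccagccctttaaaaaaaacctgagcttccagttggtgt
Each promoter has 2 matches, whose first bases lie at -156 and -122 from the start in Ifit3 and at -104 and -85 in Ifit1. Such a match describes letters and does not show that a factor was bound in these organoids.

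Psmb8 is the subunit that replaces Psmb5 in the immunoproteasome, the form of the proteasome that interferon induces and that favours peptides fit for class I. It held 7 counts over the D20 organoids, 6 at D22, 28 at D25 and 153 at D30. Single organoids ranged from 0 to 3 counts at D20, 0 to 4 at D22, 0 to 9 at D25 and 14 to 34 at D30, which left no overlap between D30 and any earlier timepoint. The scaled ratio of D30 to D20 counts was 19.5 (95% exact interval 9.26 to 49.4). Psmb8 was under the filter, and when fitted with no filter its log2 fold change of 4.15 from D20 to D30 was past the threshold (adjusted p 0.00034). In the other edgeR fit that held the gene, the step from D25 to D30 missed the threshold (2.44, adjusted p 0.0586). Psmb5 itself, named here after its values were seen, had a log2 fold change of 0.49 (SE 0.16, adjusted p 0.0163) from D20 to D30. It missed the threshold in edgeR but was called by DESeq2 (0.56, adjusted p 0.00349) and with DESeq2's size factors in edgeR (adjusted p 0.00772), where the alternatives other than leave-outs gave 0.00349 to 0.0353. Without D20 replicate 2 it was also past the threshold (0.60, adjusted p 0.00416; 0.00416 to 0.0503 over the leave-outs). Of the constitutive subunits Psmb5, Psmb6 and Psmb7 edgeR thus called 0 of 3, with 2 at an unadjusted p under 0.05, and DESeq2 1. Psmb7 and Psmb6, with the most CPM of the 3, had log2 fold changes of 0.23 (adjusted p 0.0623) and -0.13 (adjusted p 0.336).

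Tap1 forms the peptide transporter with Tap2. It ranged from 0.0699 to 3.03 CPM at D20 (median 2.53), 0.216 to 3.15 at D22 (median 1.00), 0.719 to 1.97 at D25 (median 1.23) and 1.45 to 3.65 at D30 (median 2.89). All 4 timepoints overlapped, and D20 alone spanned nearly the whole range, with 1 count in its lowest organoid and 46 in its highest. No comparison was called; from D20 to D30 the log2 fold change was 0.45 (SE 0.48, adjusted p 0.497). Its partner Tap2 did pass, from a mean of 0.967 CPM to 3.87 (log2 fold change 1.98, SE 0.44, adjusted p 0.000628), in 6 of 6 D30 organoids above all of D20. Whether the changes of Tap1 and Tap2 differ was not tested.

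Of 12 genes of peptide processing and loading, 10 were tested and 5 were called higher at D30 than at D20, with 0 lower, where 25.1% of tested annotated genes were called higher and 16.7% lower. The median log2 fold change was 0.52, beside 0.10 over those genes. Erap1, the aminopeptidase that trims peptides in the endoplasmic reticulum, led with 2.23 (SE 0.20, adjusted p 2.7e-10). It climbed from a mean of 4.10 CPM at D20 to 4.44, 7.96 and 19.3 at the later timepoints. Psmb10, the immunoproteasome subunit that replaces Psmb7, rose by 1.79 (SE 0.48, adjusted p 0.00345) but missed the threshold with the replicate number as a block (1.71, adjusted p 0.01004; 0.000187 to 0.01004 over the alternatives other than leave-outs). Tapbp, the tapasin that holds class I molecules to the transporter, rose by 1.17 (SE 0.18, adjusted p 4.24e-06). The last of the 5 was Pdia3. In each of Erap1, Psmb10 and Tapbp, as in Tap2, the 6 D30 organoids lay above all D20 organoids, a pattern of 9.6% of tested features.

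B2m, the light chain that every classical class I molecule needs to reach the surface, had the highest mean of the 9 genes per kb of exon at every timepoint. It stood at 16.5 to 25.5 CPM at D20 (median 17.3), 11.6 to 22.6 at D22 (median 16.2), 8.86 to 24.1 at D25 (median 16.4) and 21.3 to 30.8 at D30 (median 28.6). The first 3 timepoints covered each other, and 5 of 6 D30 organoids were above every earlier organoid. The log2 fold change from D25 to D30 was 0.74 (SE 0.18, adjusted p 0.00967), just inside the threshold. That call held without D20 replicate 2, D22 replicate 2, 3 or 6, D25 replicate 5 or D30 replicate 3. It was lost without any of the other organoids, 18 of the 24, with adjusted p-values from 0.00283 to 0.0256 over all leave-outs. It was also lost in 4 of 7 other alternatives: with no filter on low counts (adjusted p 0.0104), with edgeR's filterByExpr (0.0138), with the replicate number as a block (0.0136) and with the compared timepoints only (0.0191), where all 7 gave 0.00105 to 0.0191. From D20 to D30 the change was 0.52 (SE 0.18, adjusted p 0.0237), which missed the threshold; it passed in DESeq2 (adjusted p 0.00696) and with the compared timepoints only (0.00739), where the 7 gave 0.00696 to 0.0417.

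H2-D1 is a classical heavy chain, which holds the peptide. It ranged from 19.7 to 25.0 CPM at D20 (median 21.5), 18.6 to 34.3 at D22 (median 26.8), 16.1 to 33.5 at D25 (median 27.0) and 35.9 to 72.7 at D30 (median 59.7). The D20 organoids were tightly grouped, those of D22 and D25 spread around them, and all 6 of D30 lay above every earlier one. The log2 fold change was 1.09 from D25 to D30 (SE 0.16, adjusted p 2.5e-05) and 1.38 from D20 to D30 (SE 0.16, adjusted p 4.07e-08), a 2.61-fold difference. From D22 to D25 it was 0.01 (adjusted p 0.988).

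H2-K1, the other classical heavy chain among the 9, was not called in any comparison. It ranged from 19.1 to 34.5 CPM at D20 (median 29.5), 12.8 to 46.8 at D22 (median 21.3), 11.1 to 27.7 at D25 (median 19.6) and 9.37 to 34.2 at D30 (median 20.8). The timepoints overlapped throughout, and the spread was widest at D22, where 2 organoids exceeded all of D20. From D20 to D30 the log2 fold change was -0.51 (SE 0.30, adjusted p 0.191). Reads from class I heavy chains can match more than 1 of these genes, so their division between H2-K1, H2-D1 and the H2-Q and H2-T genes is uncertain; the strand setting of the counting is not stated either, although the library kit keeps the strand.

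The pair can be compared within each organoid. It was chosen after its values were seen, so the ratio is a description, with no test. The log2 ratio of H2-D1 to H2-K1 had a median of -0.49 among the D20 organoids (-0.68 to 0.39), 0.34 among those of D22 (-0.66 to 0.67), 0.44 among those of D25 (0.17 to 0.83) and 1.31 among those of D30 (0.90 to 2.76). The exons of the pair differ in length, so the change of this ratio can be read but not its sign. The mean log2 ratio was 1.14 higher at D30 than at D25 and 1.97 higher at D30 than at D20. From D20 to D22 the difference was 0.51 and from D22 to D25 it was 0.32. All 6 D30 organoids had a higher ratio than all organoids of D20 and of D25.

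**Figure D2:**
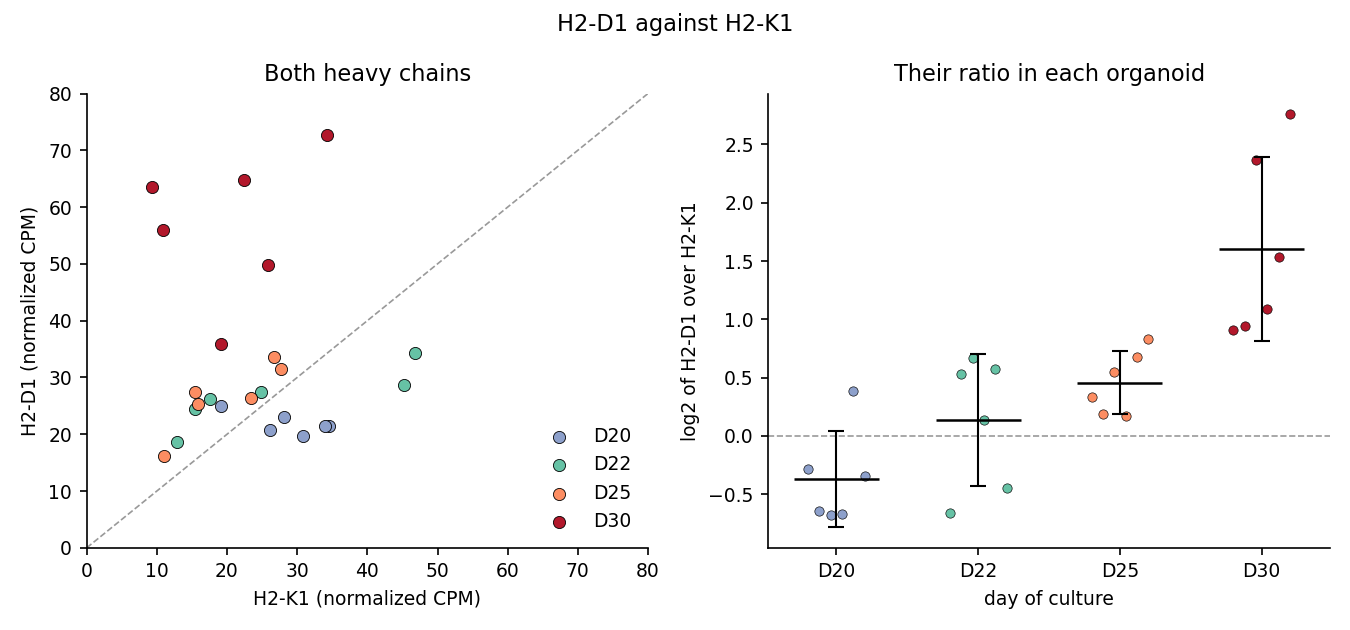
H2-D1 against H2-K1 in normalized CPM for each organoid (left, dashed line for equal values) and the log2 of their ratio by day of culture (right; points are organoids, lines means, bars 1 SD). The D30 organoids lie between 0.90 and 2.76 on the log2 scale, above all organoids of D20, D22 and D25.

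The promoters of the light chain and of both heavy chains are shown to set this difference beside their sequence. In the lines the capitals mark the ISRE core for B2m, where it lies on the other strand, and for the heavy chains a shorter form, TTTCNNTTC, that was added after seeing the sequences. A match to the longer core is not also a match to the short form from the same base. Of all promoters 6.31% of all promoters held the short form within 250 bases and 4.42% within 180. B2m is chr2:122147507-122147686 on the plus strand, H2-D1 chr17:35262914-35263093 on the plus strand and H2-K1 chr17:34000348-34000527 on the minus strand, the last from the RefSeq start that matches the annotated start of the gene.
B2m: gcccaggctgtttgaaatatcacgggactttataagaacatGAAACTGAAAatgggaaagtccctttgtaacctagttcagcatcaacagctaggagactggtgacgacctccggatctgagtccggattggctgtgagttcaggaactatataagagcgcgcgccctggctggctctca
H2-D1: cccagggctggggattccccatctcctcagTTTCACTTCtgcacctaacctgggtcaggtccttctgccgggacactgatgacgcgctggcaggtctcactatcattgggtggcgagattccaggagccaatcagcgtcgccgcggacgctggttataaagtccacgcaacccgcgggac
H2-K1: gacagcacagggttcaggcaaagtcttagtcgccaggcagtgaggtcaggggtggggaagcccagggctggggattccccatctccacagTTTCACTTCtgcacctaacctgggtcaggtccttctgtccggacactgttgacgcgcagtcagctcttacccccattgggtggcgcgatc
The match of B2m begins at -139, that of H2-D1 at -150 and that of H2-K1 at -90. Around the short form the heavy chains share a run of 40 identical bases, and with the H2-K1 sequence moved by 60 bases 107 of 120 aligned bases, 89.2%, were the same. The stretch with this match is thus shared by the heavy chain that rose and by the one that was not called.

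The GAS letters were found in the promoters of Psmb8 and Irf1 only, within the 250 bases searched in the 12 promoters. Psmb8 is chr17:34198015-34198194 and Irf1 chr11:53769834-53770013, both on the plus strand, and the capitals mark the GAS, which 4.88% of all promoters held within 180 bases.
Psmb8: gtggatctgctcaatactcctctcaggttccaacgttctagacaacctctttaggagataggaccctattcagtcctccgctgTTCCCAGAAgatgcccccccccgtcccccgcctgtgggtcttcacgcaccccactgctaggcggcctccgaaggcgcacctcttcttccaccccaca
Irf1: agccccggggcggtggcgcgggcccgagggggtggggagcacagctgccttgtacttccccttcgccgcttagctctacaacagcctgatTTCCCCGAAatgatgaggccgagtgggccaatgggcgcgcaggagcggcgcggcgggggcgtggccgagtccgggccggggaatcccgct
The matches begin at -97 and -90. The other promoter of Irf1 and those of Tap1 and Irf9 held none of the 3 motifs in the window.

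**Figure D3:**
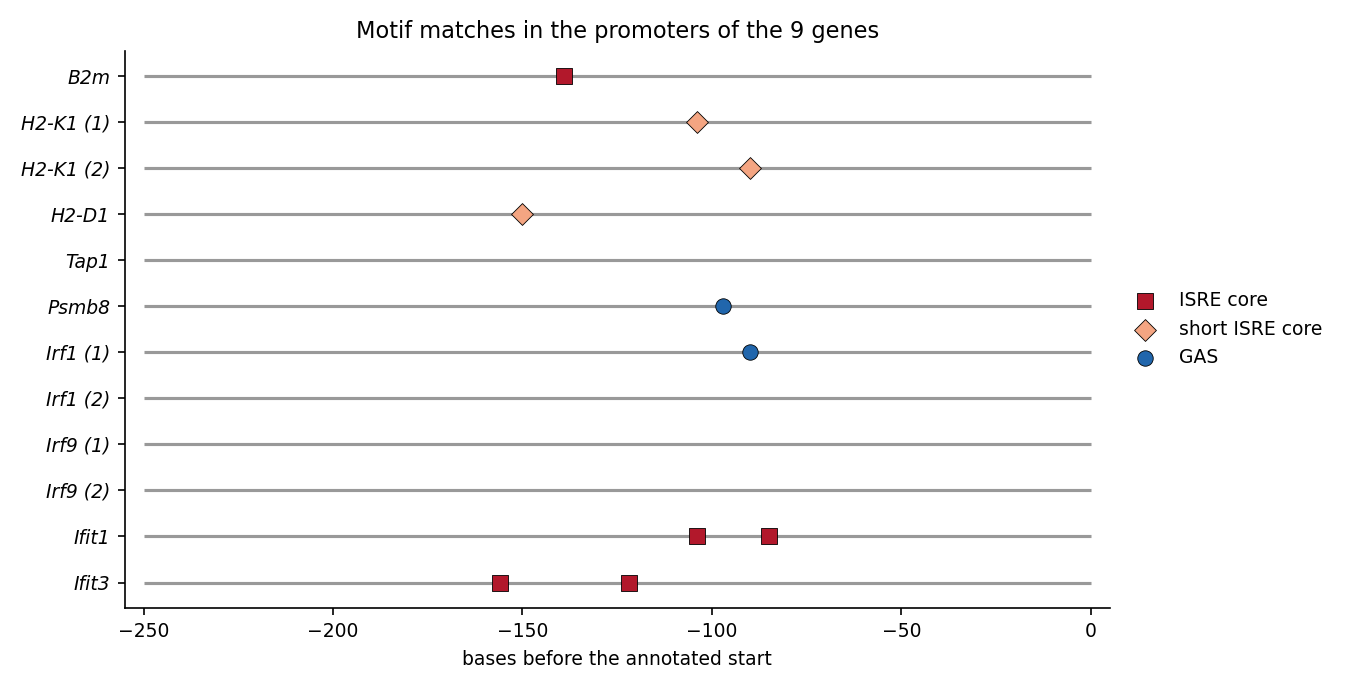
Places of the motif matches in the 12 promoters of the 9 genes, as bases before the RefSeq start; a grey line is the 250 bases searched, and numbers in brackets tell apart promoters of the same gene. Ifit1 and Ifit3 have 2 ISRE cores each, B2m has 1, and the heavy chains have the short form.

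Levels can be ranked between genes only per kb of exon. The length used is that of all annotated exons of a gene together, which can exceed that of the transcripts present. At D20 the order of mean CPM per kb was B2m 22.3, H2-K1 9.80, H2-D1 8.49, Irf9 1.65, Irf1 0.785, Tap1 0.367, Ifit3 0.0393, Psmb8 0.0236 and Ifit1 0.0171. At D30 it was B2m 32.0, H2-D1 22.1, H2-K1 6.91, Irf9 3.31, Ifit3 1.95, Irf1 1.40, Tap1 0.502, Psmb8 0.459 and Ifit1 0.209. Ranges of neighbours overlapped at D20 except between B2m and H2-K1 and between H2-D1 and Irf9. At D30 they overlapped except between H2-D1 and H2-K1 and between Irf1 and Tap1. The means of H2-D1 and H2-K1 per kb thus exchanged places from an overlap at D20, and that of Ifit3 passed those of Irf1 and Tap1. In CPM the D30 mean of Irf1 (5.56) was above that of Ifit3 (3.41), so the order of these 2 depends on the exon lengths used.

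Beyond the classical pair, 12 further class I heavy chains were listed, of which 9 were tested, 3 were called higher at D30 than at D20 and 0 lower, which is near the 25.1% of tested annotated genes called higher. The median log2 fold change was 0.77, that of H2-T23, beside 0.10 over those genes. The 6 genes not called went in both directions. H2-T22 (0.96) and H2-T23 were above 0, while H2-Q4 (-0.26), H2-Q6 (-0.43), H2-Q7 (-0.88) and Cd1d1 (-0.73) were below 0. These genes were named after their values were seen. The called ones do not present ordinary peptides. Fcgrt, the neonatal receptor for immunoglobulin G, went from a mean of 0.897 CPM to 8.46 (log2 fold change 3.23, SE 0.50, adjusted p 5.14e-06). Hfe, a regulator of iron uptake, went from 0.185 to 1.74 (3.20, SE 0.67, adjusted p 0.000298), and Mr1, which presents vitamin metabolites, from 4.04 to 13.4 (1.73, SE 0.32, adjusted p 7.49e-05). In all 3 the 6 D30 organoids lay above all D20 organoids, a pattern of 9.6% of tested features. Each of these 3 genes had a higher mean at D25 than at D20 as well.

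The sensors that recognise foreign nucleic acid upstream of interferon gave 8 tested genes of 12, with 4 called higher from D20 to D30, 0 lower and a median log2 fold change of 0.80. Of tested annotated genes 25.1% were called higher, and their median was 0.10. Tlr3, the endosomal receptor for double-stranded RNA, rose by 4.38 (SE 0.90, adjusted p 0.000237) from a mean of 0.122 CPM to 2.73. Ifih1 and Ddx58, the cytosolic RNA sensors MDA5 and RIG-I, rose by 2.2 (SE 0.45, adjusted p 0.000233) and 1.15 (SE 0.23, adjusted p 0.000198). Traf3, an adaptor that links sensors to IRF kinases, rose by 1.12 (SE 0.15, adjusted p 5.42e-07). For each of the 4 every D30 organoid exceeded every D20 organoid, a pattern of 9.6% of tested features. As the 4 were named by this same change, the pattern is a description. Tlr3, scarce at D20, could pass the filter through its D30 counts. How far this shaped the list's number called and median was not tested.

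Of 40 other interferon-induced genes 20 were tested, 10 were called higher at D30 than at D20 and 0 lower, and the median log2 fold change was 0.96. The same values over tested annotated genes were 25.1% called higher, 16.7% lower and a median of 0.10. The 4 with the largest changes were Samd9l (4.92, SE 0.76, adjusted p 4.49e-06), Xaf1 (4.85, SE 0.76, adjusted p 5.61e-06), Gbp2 (4.42, SE 0.75, adjusted p 2.11e-05) and Ifi27 (3.38, SE 0.70, adjusted p 0.000277). Gbp2, a GTPase that attacks the vacuoles of pathogens, went from a mean of 0.261 CPM at D20 to 0.201, 0.774 and 5.73 at the later timepoints. In all 4 genes the 6 D30 organoids were above all of D20, a pattern of 9.6% of tested features. The other called genes were Ifit2, Ifitm3, Cmpk2, Gbp3, Irgm1 and Lgals3bp. Some of the 20 tested genes were scarce before D30: Xaf1 had means of 0.0679, 0.201, 0.450 and 2.18 CPM at the 4 timepoints. Such genes could pass the filter through their D30 counts. How far this shaped the number called and the median was not tested. The list also has a silent side: Oas1a, Oasl1 and Trex1 had 0 counts in every organoid, and 20 of the 40 genes were under the filter. Isg15, Mx1 and Rsad2, classical markers of interferon exposure named here after their values were seen, had 7, 11 and 18 counts over the D30 organoids. Their D20 organoids held 4, 9 and 11.

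**Figure D4:**
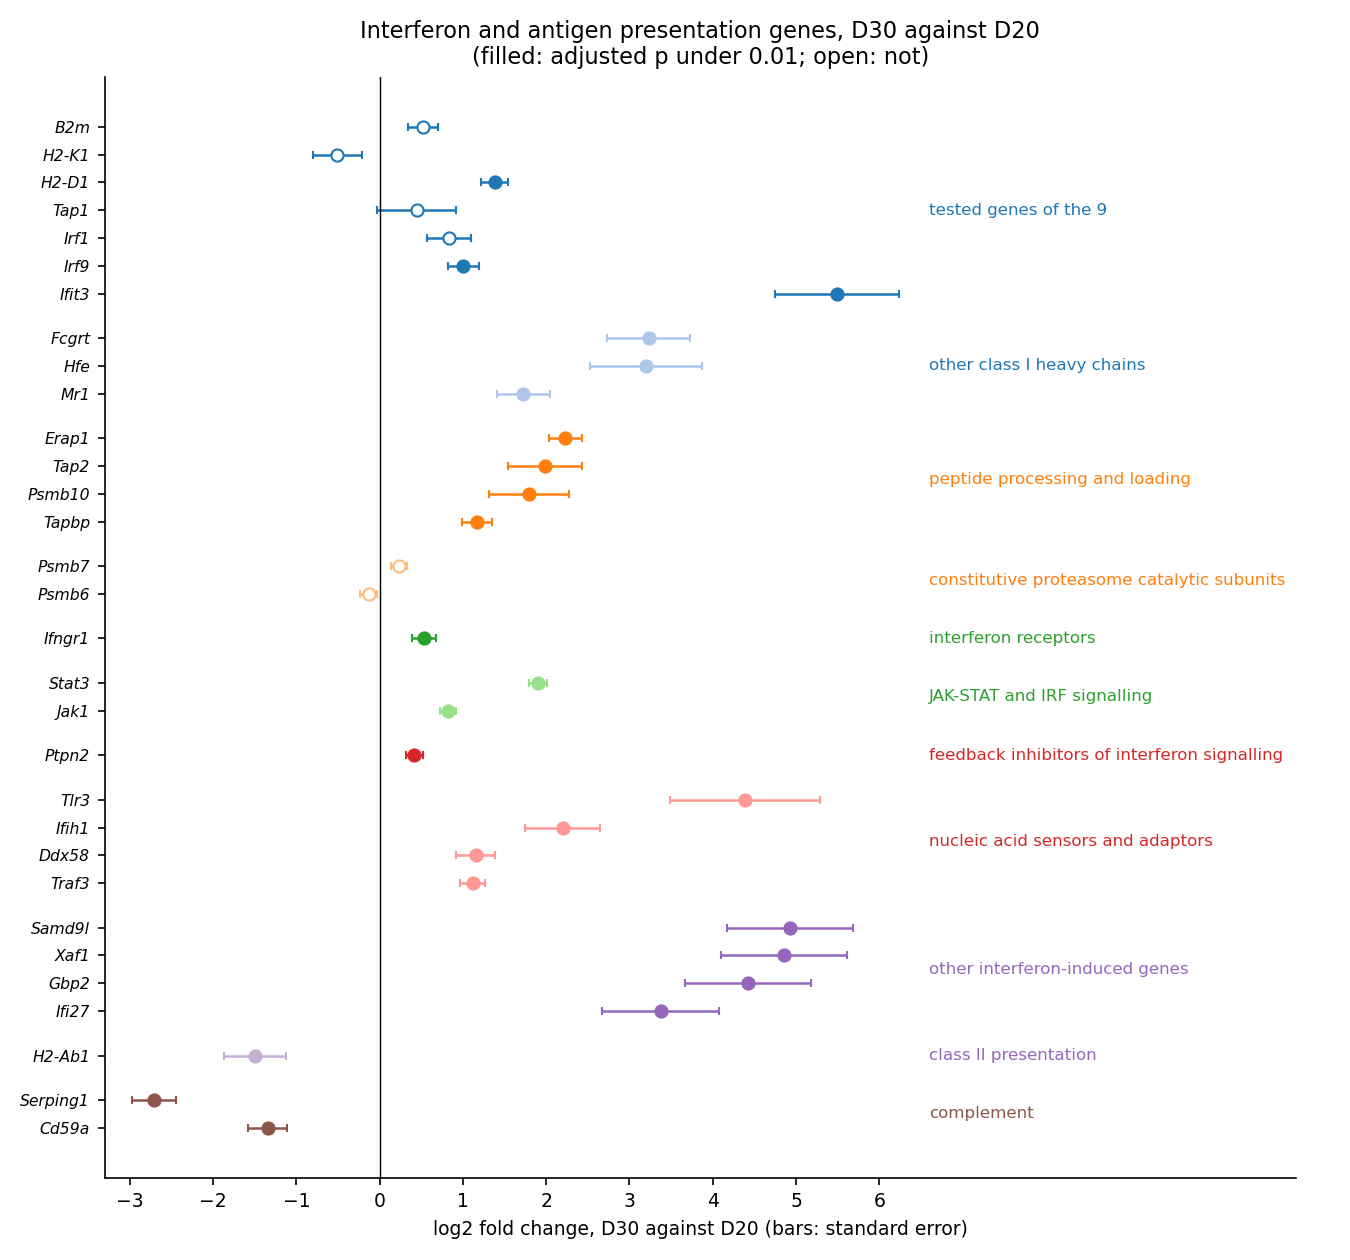
Log2 fold change from D20 to D30, with the standard error as bar, of the 7 tested genes of the 9 and of the genes named from each pathway list; filled points have an adjusted p under 0.01. Ifit3 at 5.49 has the largest value shown, and H2-Ab1, Serping1 and Cd59a are called lower.

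Class II genes gave 2 tested of 7, and 1 was called, H2-Ab1, a chain of the class II molecule I-A, which fell, as did 16.7% of tested annotated genes. It ranged from 18.1 to 35.2 CPM at D20 (median 28.8), 11.4 to 47.4 at D22 (median 20.4), 5.74 to 26.3 at D25 (median 13.8) and 3.44 to 20.7 at D30 (median 8.59). The log2 fold change from D20 to D30 was -1.49 (SE 0.37, adjusted p 0.00183), with 5 of 6 D30 organoids below all of D20. The partners a class II molecule needs were near 0: H2-Aa, the other chain of I-A, was found at D22 alone, with 10 counts, and Cd74, the invariant chain, held 1, 4, 14 and 2 counts over the organoids of the 4 timepoints. These 2 were named after their values were seen.

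Among 6 complement genes 4 were tested, 1 was called higher and 2 lower from D20 to D30, beside 25.1% and 16.7% of tested annotated genes. Serping1, the inhibitor of the first complement component and an interferon-induced gene in many cells, fell by 2.71 (SE 0.27, adjusted p 1.93e-09), and Cd59a, an inhibitor of the membrane attack complex, fell by 1.35 (SE 0.23, adjusted p 2.17e-05). In both, all 6 D30 organoids lay below all D20 organoids. The share of all features with this pattern was not computed, so it does not set these 2 genes apart.

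Organoids of the same timepoint with more of one gene did not reliably have more of another. For the 7 tested genes the deviations of log2 levels from the timepoint means gave 21 pairs over 24 organoids. The highest Pearson correlation was that of B2m and Irf1, r = 0.63 (permutation p = 0.00532, adjusted 0.112) with Spearman's rho of 0.57 (permutation p = 0.0113, adjusted 0.200). Without the 2 organoids farthest from the median of B2m it was 0.53. The lowest was that of H2-D1 and Ifit3 at r = -0.48 (permutation p = 0.0644, adjusted 0.271; rho -0.35, permutation p = 0.140), which became -0.06 without the 2 organoids farthest from the median of H2-D1. H2-D1 and H2-K1 had r = 0.48 (permutation p = 0.0401, adjusted 0.271; rho 0.46, permutation p = 0.0468), or 0.52 without 2 organoids. After adjustment over the pairs 0 of 21 passed 0.01, and the median r was -0.01.

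The genes most like the 9 were sought among 10826 annotated genes whose mean normalized count reached 100, by Pearson's r with the mean of the standardized levels of the 7 tested genes over 24 organoids. Among the 5 closest were Ctsd (r = 0.91), Cd151 (0.90), Efemp1 (0.90) and Arl1 (0.90). These 4 were higher at D30 than at D20, from log2 fold changes of 0.37 for Arl1 to 1.81 for Efemp1. With the timepoint means removed the closest were Rpl37 (0.86), Rpl37a (0.85), Scnm1 (0.85), Tmem256 (0.84) and Rps14 (0.83), which include 3 genes of ribosomal proteins. These values describe a ranking and carry no p.

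H2-K1 on its own had closer company, looked up after seeing its spread. With timepoint means removed the genes most like it were Slc2a3 (r = 0.93), Stc2 (0.92), Fgf11 (0.91), Gpi1 (0.91) and Atxn7l2 (0.90), out of 10829 ranked over 24 organoids. Slc2a3 encodes a neuronal glucose transporter and Gpi1 a glycolytic enzyme. Within single timepoints r between H2-K1 and Slc2a3 over 6 organoids was lowest at D20 (0.63) and stood at 0.97 for D22, 0.93 for D25 and 0.95 for D30. H2-Ab1 tracked H2-K1 too, with r = 0.89 over the 24 organoids, 0.71 at D20 and 0.95, 0.89 and 0.91 at the later timepoints. B2m (0.01) and H2-D1 (0.48) did not come as close to H2-K1. As rankings these are descriptions with no test.

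**Figure D5:**
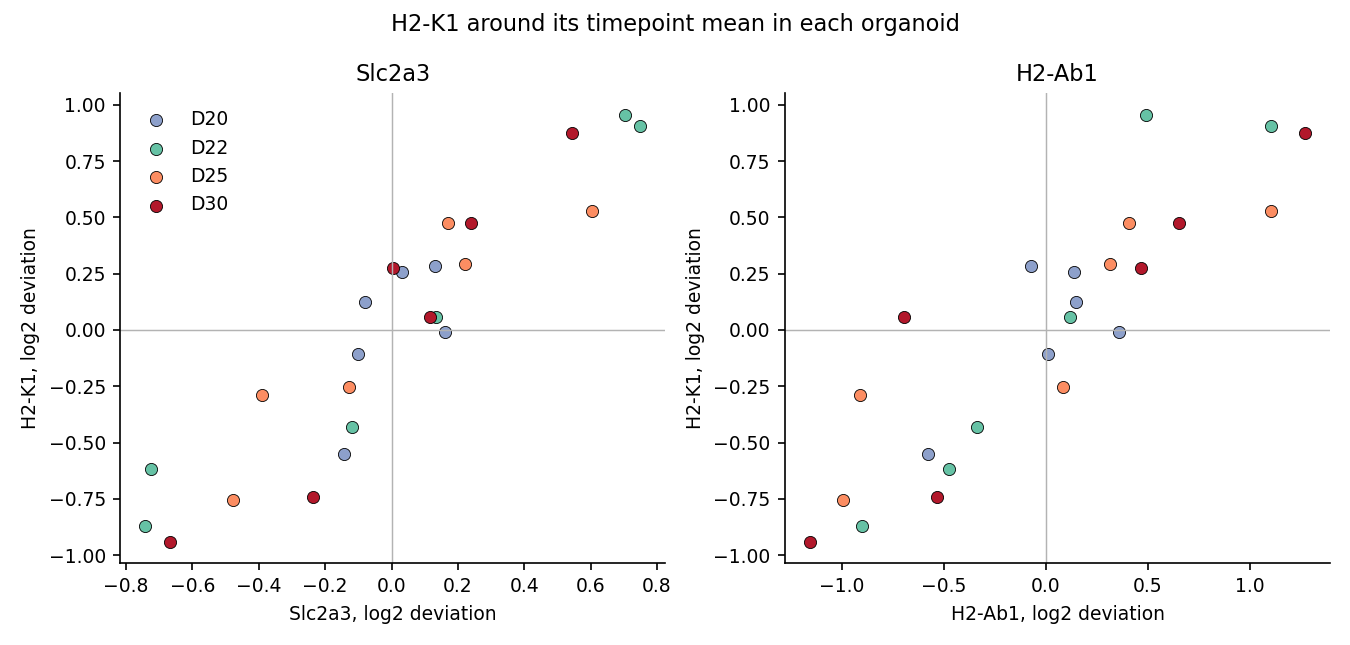
H2-K1 against Slc2a3 (left) and H2-Ab1 (right), each as the deviation of log2 level from its timepoint mean, 1 point for each of 24 organoids. Organoids high in H2-K1 were high in Slc2a3 (r = 0.93) and in H2-Ab1 (r = 0.89).

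Cells that could bring class I or interferon-induced transcripts were looked for by marker lists. Of 15 markers of microglia and macrophages, Trem2, Tyrobp and Fcrls had 0 counts in every organoid. Of the 15, 13 genes never exceeded 0.979 CPM in an organoid, or 15 counts, and their summed means were 0.783, 0.479, 0.736 and 0.809 CPM at the 4 timepoints. The defining markers of these cells were thus near 0 at D30, where H2-D1, Irf9 and Ifit3 were higher.

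Other cell lists moved with the timepoints. The 7 endothelial markers summed to means of 284, 252, 216 and 171 CPM, nearly all from Kdr, which retinal progenitors also express and which fell by 0.73 (adjusted p 1.2e-06). Of 3 tested, 1 was higher and 2 lower, beside 25.1% and 16.7% of tested annotated genes. Cldn5 fell by 5.88 (adjusted p 9.78e-08) and Pecam1 rose by 2.97 (adjusted p 0.0015), both named after their values were seen. Single organoids summed to 258 to 343 CPM at D20, 224 to 272 at D22, 166 to 243 at D25 and 126 to 209 at D30. All 8 fibroblast and mural markers were tested and 5 were higher at D30 than at D20, against 25.1% of tested annotated genes. Their sums were 8.68 to 32.4 CPM at D20, 5.03 to 25.4 at D22, 12.6 to 155 at D25 and 37.4 to 273 at D30, and the marker with the highest mean CPM over all 24 organoids, a value not set per kb of exon, was Col3a1 (log2 fold change 4.08, adjusted p 0.000812, above all D20 organoids in 5 of 6). Pdgfrb, named after its values were seen, had a higher mean CPM than Col3a1 at D20 and at D22 (there 4.70 against 3.06).

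Markers of the labelled tissue, retina, were counted throughout. The 10 retinal markers all had counts, with the highest mean CPM at each timepoint for Crx of photoreceptors, and summed to means of 2362, 2691, 2734 and 2440 CPM; 3 were higher and 5 lower at D30 than at D20, against 25.1% and 16.7% of tested annotated genes. Single organoids held 2234 to 2622 CPM of them at D20, 2410 to 3043 at D22, 2227 to 3172 at D25 and 2013 to 2655 at D30. Of 9 Müller glia markers, of which Rlbp1 and Glul also stand in the retinal list, 6 were higher and 2 lower, where the shares of tested annotated genes were 25.1% and 16.7%. Their sums were 1069 to 1385 CPM at D20, 888 to 1168 at D22, 1069 to 1503 at D25 and 1543 to 6470 at D30. Apoe had the highest mean CPM over all organoids, although Dkk3, named after its values were seen, was above it at D20 and D22 (649 and 393 CPM against 167 and 182). The log2 fold change of Apoe was 2.76 (adjusted p 7.8e-12, in 6 of 6 D30 organoids above all of D20). Markers of glia and fibroblasts were thus called higher over the same interval as H2-D1, Irf9 and Ifit3, and their part in those changes was not tested.

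All organoids came from the same experiment and line, so the calls hold for this culture alone. Day of culture and whatever else differed between the collections cannot be told apart.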

How the data were processed

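Single-organoid RNA libraries were sequenced, and the authors deposited raw read counts per feature, made with HTSeq 0.6.1 on GRCm38 from annotated genes and StringTie 1.3.3 loci. Counts were tested in edgeR 4.0.16 (R 4.3.3; TMM, quasi-likelihood, 1 fit of all 24 organoids) on 46949 features with a DESeq2 1.42.0 base mean of at least 10, adjusted by Benjamini-Hochberg over all of them, threshold 0.01. Replicates are separate organoids of 1 experiment. Correlations used log2(normalized CPM + 0.5) with 100000 permutations within timepoints. The code was tested on simulated data. Members, lists and tests were chosen with earlier results of these data known. Named are the 9 genes; of each list at most the 4 called genes with the largest change from D20 to D30, else the 2 most abundant; the gene of each marker list with the highest mean CPM; and the 5 genes most alike by each measure; 4 genes that met this rule are not reported. Alternatives were DESeq2's test, its size factors, no filter, edgeR's filterByExpr, annotated genes only, a replicate block, the compared timepoints only, other pseudocounts and leaving out each organoid.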

Additional observations from a re-analysis of the deposited data

Results flagged for a closer look

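In 36 groups of 6 organoids (9 genes at 4 timepoints), 5 had a highest organoid whose distance to the next one took up more of the group's range than Dixon's 95% limit; chance gives about 1 in 20 groups. The widest in counts was Ifit3 in D25 replicate 3, at 2.38 CPM (39 counts) with the next organoid at 0.915. The other 4 rest on few counts: Psmb8 in D22 replicate 4 at 0.274 CPM (4 counts), Ifit1 in D20 replicate 3 at 0.206 (3 counts), Ifit1 in D25 replicate 5 at 0.238 (4 counts) and Ifit3 in D20 replicate 2 at 0.202 (3 counts).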

How the results depend on the processing

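Under 7 alternatives and 24 leave-outs the D30 against D20 calls of H2-D1, Irf9 and Ifit3 were kept. The D22 against D20 count was 0 throughout in edgeR and DESeq2, with 0 or 1 at an unadjusted p under 0.05 in the alternatives. DESeq2's test called 1 of the 9 genes in D25 against D22 (leave-outs 0 to 1), 5 in D30 against D20 (leave-outs 3 to 4) and 4 in D30 against D25. With no filter on low counts 1 gene was called in D30 against D25, where more features were tested; leave-outs gave 1 to 3, with 1 without D25 replicate 1, 2 or 4 or D30 replicate 5 or 6. The joint count was 5 or 6. With a replicate block the counts were 0, 0, 2, 3 and 5, although organoids with the same number are different organoids. The 36 pairs with the same number had a mean r of 0.013 (-0.083 to 0.21) and pairs with different numbers -0.003. Of the 24 organoids 8 correlated best with an organoid of their own number. Whether the numbers mark a shared effect was not tested. From D20 to D30 Psmb8 was past the threshold in both fits that held it (adjusted p 0.000333 to 0.00034). Over annotated genes only, H2-D1 had a level of 25.7 CPM at D20 and 32.3 at D22, and log2 fold changes near 0 turned: from D22 to D25 -0.0554 for Tap1, -0.0705 for B2m and -0.0819 for H2-D1, and from D25 to D30 -0.0583 for H2-K1; the cause was not tested. Leave-outs turned the same ones, with ranges of -0.18 to 0.54, -0.12 to 0.15, -0.079 to 0.11 and -0.19 to 0.17, and H2-K1 from D20 to D22 at -0.31 to 0.0611. Correlations that turned were B2m with H2-D1 (0.0364) and with Irf9 (-0.0389), both without 2 organoids, and Tap1 with Ifit3 (0.0568 with a pseudocount of 1, 0.14 without 2 organoids); the cause was not tested. Of 896 refitted values of the other named genes from D20 to D30, 889 kept direction and side of the threshold, 2 fell short of it, 5 newly passed it and 0 turned. Over leave-outs chosen after seeing the data, the difference in the log2 ratio of H2-D1 to H2-K1, given with no test, was 0.91 to 1.28 for D30 against D25 and 1.74 to 2.12 for D30 against D20. The median log2 fold change of annotated genes from D20 to D30 was 0.10, 0.16 with DESeq2's size factors and 0.01 with annotated genes only. DESeq2 called 1605 features in D22 against D20, edgeR 894. Depth limits Psmb8, Ifit1 and Ifit3 at D20 and D22, where organoids held at most 6 counts.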

Other observations

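H2-Ab1, the class II chain that fell with time, was closest within timepoints to Fgf11 (r = 0.96), Egln1 (0.93), Pfkp (0.93), Slc16a3 (0.93) and Jmjd6 (0.91) among 10829 genes over 24 organoids, a ranking made after seeing the data. Egln1 is an oxygen sensor, Pfkp a glycolytic enzyme and Slc16a3 a lactate exporter. Pfkp had means of 982, 904, 590 and 500 CPM at D20, D22, D25 and D30 (log2 fold change -0.97, adjusted p 0.000546 in edgeR), and Slc16a3 67.9, 73.0, 49.1 and 30.2 (log2 fold change -1.17, adjusted p 0.000211).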
